A study of Mus musculus with 13 samples.

Results

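Myelin and oligodendrocyte lineage genes were followed in the brains of mice whose brain endothelial cells had kept or lost Pdcd10, at normal or reduced oxygen. The set holds 29 genes, given as a list of symbols and matched by symbol to the 55416 genes of the count table, and all 29 were found once. The list has 4 genes of oligodendrocyte precursors and newly formed oligodendrocytes, 15 genes of mature myelin, 5 transcription factors of the lineage and 5 other genes of oligodendrocytes. All 29 also passed the filter on low counts, among 22507 genes tested. The lowest count of any of them in any library was 38, for Ninj2.

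Oligodendrocytes wrap axons of the central nervous system in myelin, a stack of membrane rich in galactolipids and in a few abundant proteins. They arise from precursors that carry the receptor Pdgfra, pass through a short stage marked by Gpr17, Enpp6 and Bcas1, and then switch on the myelin genes under the transcription factors Sox10, Olig1, Olig2, Nkx6-2 and Myrf. Precursors divide and migrate along blood vessels, and much of the myelin of the mouse forebrain is laid down in the first weeks after birth.

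The study crossed 2 genotypes with 2 oxygen levels and sequenced 13 messenger RNA libraries. All mice carried the loxP-flanked gene (Pdcd10 fl/fl). The knockouts, called KO here, also carried Slco1c1-iCreERT2, a tamoxifen-dependent Cre recombinase driven by a promoter of brain endothelial cells, and received 50 µg of 4-hydroxytamoxifen on postnatal day 1. The controls, called flox here, are labelled Pdcd10fl/fl. The design text also names uninjected mice with Cre as controls, and it does not say whether the flox mice were injected. Pdcd10 is also named Ccm3, and its endothelial loss serves to model cerebral cavernous malformation, in which brain capillaries widen and leak. Normoxia was 21% oxygen and hypoxia 12% oxygen for 7 days. Normoxia had 3 libraries of each genotype, and hypoxia had 3 of flox and 4 of KO, numbered as in the labels (flox normoxia 1 to 3 and so on). The age at sampling is not given in the labels. Effects of the deletion, the Cre transgene and the injection cannot be told apart in this design.

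Total counts ran from 42090437 to 71216636 per library. The targeted gene Pdcd10 was not called in whole tissue. Its log2 fold change between KO and flox was -0.02 ± 0.07 in normoxia (edgeR adjusted p = 0.962) and -0.09 ± 0.07 in hypoxia (edgeR adjusted p = 0.47). The groups overlapped in normoxia. In hypoxia KO, at 14.7 to 17.03 CPM, lay below flox, at 17.20 to 17.58 CPM, without overlap, as did 9.37% of all genes. The level of Pdcd10 thus does not check the genotype of a deletion limited to endothelial cells. The tissue label is brain. The oligodendrocyte markers were abundant. Of the hindbrain genes, Hoxb3, Hoxb5 and Hoxa5 had 0 counts in every library, while Slc6a5 had 2 to 16 counts and Tph2 0.678 to 1.05 CPM. Gabra6, of cerebellar granule cells, had at most 11 counts, while the other 9 cerebellar genes listed summed to between 209 and 242 CPM. Which brain regions the tissue held was not tested. All 13 libraries are labelled male, yet 4 of them went against that label: flox normoxia 3, KO normoxia 3, KO hypoxia 3 and KO hypoxia 4 held Xist at 577 CPM or more and Y-linked transcripts at 0.0147 CPM or less. In the other 9, Y-linked transcripts summed to between 141 and 162 CPM. The 3 flox libraries in hypoxia were all among those 9, so the groups are not balanced in this respect, and values from the 9 libraries alone are given beside the main results. KO hypoxia 1 stood apart from its group over all genes, with a chi-square per degree of freedom of 42.3 to 48.0 against the other 3 KO hypoxia libraries, which gave 10.5 to 16.25 among themselves.

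**Figure D1:**
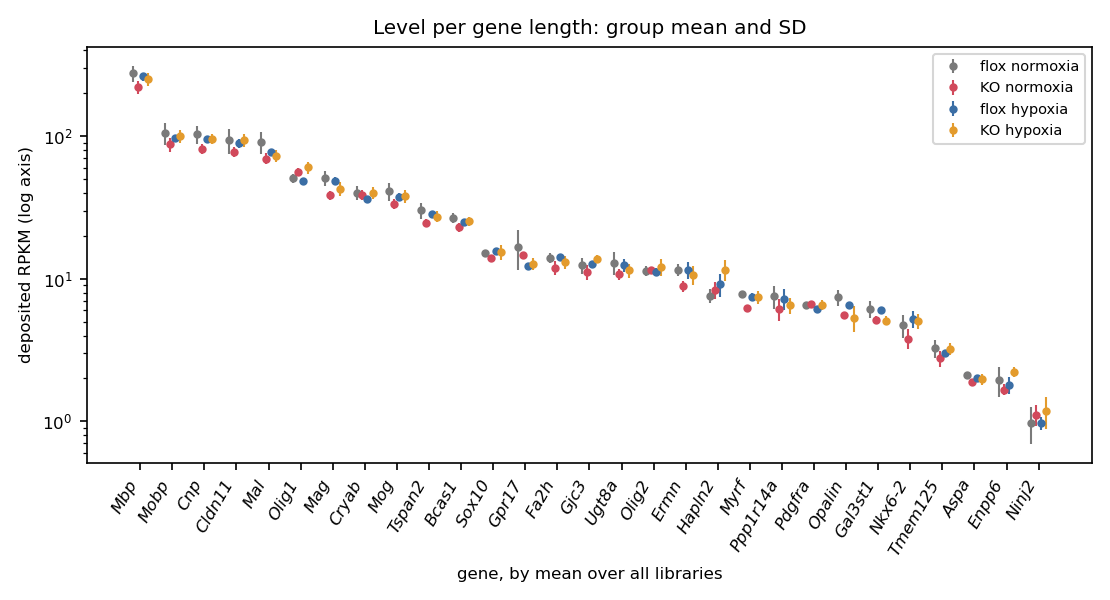
Deposited RPKM (log axis) of each of the 29 genes, ordered by the mean over all libraries. Points are group means and bars are SDs over 3 or 4 libraries. Mbp stands highest at 253 RPKM and Ninj2 lowest at 1.07 RPKM, and the groups of a gene lie far closer together than the genes do.

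Per length, on the scale of RPKM (reads scaled by gene length and library size, the authors' deposited values), the mature myelin genes led the set. Mbp, which encodes the myelin basic protein that compacts the sheath, had the highest mean over the 13 libraries, 253 RPKM. Next came Mobp (97.8 RPKM), Cnp (93.9 RPKM), Cldn11 (89.1 RPKM) and Mal (77.3 RPKM). These encode a basic protein of the myelin sheath, a myelin phosphodiesterase, the claudin of the radial component and a lipid raft protein. Olig1 followed as the highest transcription factor at 54.6 RPKM, above Mag at 45.1 RPKM. The lowest were Aspa (2 RPKM), Enpp6 (1.94 RPKM) and Ninj2 (1.07 RPKM). The plot of RPKM by gene shows that the differences between groups were small beside the differences between genes.

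The first comparison asked how KO differed from flox in normoxia. Most of the myelin genes had lower mean levels in KO, and 2 genes passed the test: Mag, an adhesion protein of the myelin layer next to the axon, and Myrf, the transcription factor that switches on myelin genes. Values are CPM, counts scaled by library size with TMM factors, fold changes are on the log2 scale with standard errors, and a gene was called at an edgeR adjusted p under 0.05 over all genes tested. The 2 called genes were both lower in KO, while 2.33% of all genes were called, 1.96% higher and 0.369% lower. Of the 29 genes 24 had a log2 fold change below 0, against 51.1% of all genes, and the median was -0.24 against 0.00 over all genes. An unadjusted p under 0.05 was reached by 16 of the 29 and by 13.6% of all genes. Over the 9 libraries alone 6 of the 29 reached it, 21 were below 0 and the median was -0.10. Without flox normoxia 3 the median was -0.17. The genes are read from the same libraries and largely the same cells, so these counts are not counts of independent events.

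**Figure D2:**
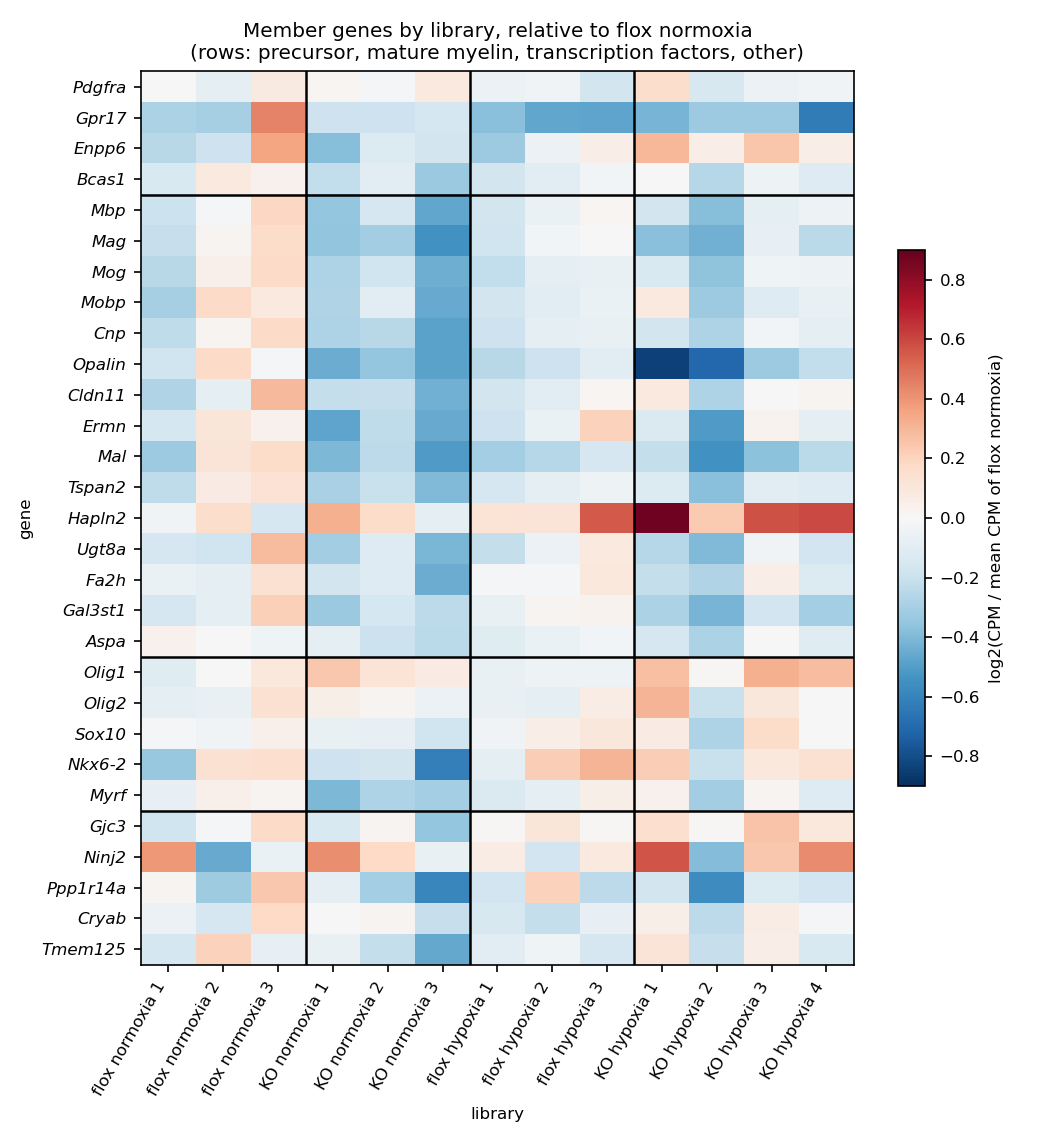
CPM of each gene (rows, grouped by role) in each library (columns, grouped by genotype and oxygen) as log2 of the ratio to the mean of flox normoxia. Blue is lower and red is higher: the mature myelin rows are mostly blue in KO normoxia, most of all in KO normoxia 3, and mostly red in flox normoxia 3.

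Among the 15 mature myelin genes 14 were below 0 in KO in normoxia, with a median of -0.29, and 7 had no KO library as high as any flox library: Mag, Cnp, Opalin, Ermn, Fa2h, Gal3st1 and Aspa. With the transcription factors Sox10 and Myrf, this made 9 of 29 genes without overlap, all lower in KO, against 8.7% of all genes lower and 10.5% higher without overlap. Mag was at 180.4, 212 and 234 CPM in the 3 flox libraries and at 163, 168 and 143 CPM in the 3 KO libraries in normoxia. Every KO library lay below every flox library, with KO normoxia 3 the lowest and flox normoxia 3 the highest. The group levels were 209 ± 26.9 and 158 ± 13.3 CPM (SD, n = 3 each), a log2 fold change of -0.40 ± 0.10 (edgeR adjusted p = 0.0421). In the 9 libraries it was -0.25 (edgeR adjusted p = 0.175), which no longer passed. In a fit of all 13 libraries with a sex term it was -0.39 and stayed called (edgeR adjusted p = 0.0367).

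Myrf, a membrane-bound transcription factor that is cleaved and then acts in the nucleus, was at 63.6, 69.3 and 68.2 CPM in flox and at 50.7, 55.2 and 54.2 CPM in KO in normoxia. The groups were clearly apart and the libraries within each lay close together. The log2 fold change was -0.33 ± 0.08 (edgeR adjusted p = 0.0364). In the 9 libraries the size was the same, -0.33, but the adjusted p rose to 0.172 in edgeR with fewer libraries. With a sex term Myrf was at -0.33 and stayed called (edgeR adjusted p = 0.0422). Leaving out any 1 of the 13 libraries kept the call of Mag in 4 of 13 fits and of Myrf in 6 of 13. No gene of the set was called without flox normoxia 2, flox normoxia 3, any 1 of the 3 KO normoxia libraries or flox hypoxia 2. Mag alone lost its call without flox hypoxia 1, flox hypoxia 3 or KO hypoxia 4, and Myrf alone without flox normoxia 1. Log2 fold changes over these 13 fits stayed between -0.50 and -0.31 for Mag and between -0.37 and -0.29 for Myrf.

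The structural proteins of myelin other than Mag did not pass in edgeR in normoxia, while DESeq2 called Mbp, Cnp, Opalin, Ermn, Mal and Tspan2 lower as well as Mag and Myrf. Mbp was at 2055, 2329 and 2669 CPM in flox and at 1850.1, 2115 and 1697 CPM in KO, and the groups overlapped. Its log2 fold change was -0.32 ± 0.10 (edgeR adjusted p = 0.125). Cnp, the phosphodiesterase that keeps cytoplasmic channels open in the sheath, was at 321, 384 and 426 CPM in flox and 310.3, 316 and 269.8 CPM in KO. Flox normoxia 1 was only just above KO normoxia 2. The log2 fold change was -0.33 ± 0.09 (edgeR adjusted p = 0.0653). Mog, a surface protein of the outermost layer, Mobp and Cldn11 stood at -0.30, -0.26 and -0.28. Mal, Tspan2 and Ermn, which encode a raft protein, a tetraspanin and a cytoskeletal protein of the sheath, stood at -0.38, -0.29 and -0.38. None of these 6 passed in edgeR, and Mal, Tspan2 and Ermn passed in DESeq2.

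Enzymes of myelin lipids and metabolism also had values below 0. Fa2h makes the hydroxylated fatty acids of galactolipids, Ugt8a adds galactose to ceramide, Gal3st1 adds sulfate to make sulfatide, and Aspa breaks down N-acetylaspartate. Their log2 fold changes in normoxia were -0.24 ± 0.09, -0.27 ± 0.12, -0.24 ± 0.10 and -0.17 ± 0.08, and none passed in edgeR or DESeq2. Hapln2, a link protein of the matrix at nodes of Ranvier, was the one mature gene above 0, at 0.14 ± 0.15. It was at 17.8, 20.3 and 16.3 CPM in flox and 22.6, 20.3 and 17.1 CPM in KO, with overlapping groups.

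The 4 precursor genes had a median of -0.20 in normoxia, but this rested on flox normoxia 3. Gpr17, a receptor that peaks in newly committed oligodendrocytes, was at 71.6, 71.1 and 119 CPM in flox and at 76.5, 76.7 and 78.2 CPM in KO. The third flox library stood far above the rest and the other two were below all of KO. Enpp6, a choline phosphodiesterase of newly formed oligodendrocytes, was at 10.5, 10.98 and 16.04 CPM in flox and 9.61, 11.5 and 11.1 CPM in KO. Without flox normoxia 3 the median of the 4 precursor genes was 0.04, and in the 9 libraries it was 0.01. The median of the 15 mature genes was -0.22 without flox normoxia 3, -0.25 without KO normoxia 3 and -0.15 in the 9 libraries. Pdgfra, the growth factor receptor of precursors, was level at 0.03 ± 0.07, and Bcas1 stood at -0.21 ± 0.07 (edgeR adjusted p = 0.179).

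In hypoxia most values over all libraries lay nearer to 0, and the 1 gene that passed was higher in KO. Olig1, a basic helix-loop-helix factor present from precursors to mature cells, was at 106, 107 and 107 CPM in the 3 flox libraries and at 133, 111, 138 and 134 CPM in the 4 KO libraries. All 4 KO libraries lay above the narrow flox range, 3 of them by a wide margin. The levels were 107 ± 0.858 (SD, n = 3) and 129 ± 12.1 CPM (SD, n = 4), a log2 fold change of 0.28 ± 0.07 (edgeR adjusted p = 0.0162). In this comparison 9.06% of all genes were called, 6.78% higher and 2.28% lower, so 1 of 29 is below the share over all genes. In the 9 libraries Olig1 stood at 0.20 (edgeR adjusted p = 0.129). Its call also ended without any 1 of the 3 flox hypoxia libraries and in a fit with a sex term, at 0.24 (edgeR adjusted p = 0.0605). In the fit with a sex term Gal3st1 was the 1 gene called, lower in KO at -0.36 (edgeR adjusted p = 0.0223).

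Of the 15 mature myelin genes 12 were below 0 in KO in hypoxia, with a median of -0.10, and over all 29 it was 17 against 52.1% of all genes. The median of the 29 was -0.02 against -0.01 over all genes. The median of the 15 was -0.03 without KO hypoxia 2, -0.06 without flox hypoxia 3 and -0.15 in the 9 libraries, where it equalled that in normoxia to 2 decimals. That of the 29 was 0.04 without KO hypoxia 2 and -0.10 in the 9 libraries. Opalin, an oligodendrocyte membrane glycoprotein, was at 18.5, 19.3 and 20.5 CPM in flox and at 12.2, 13.5, 17.5 and 18.9 CPM in KO. KO hypoxia 1 and 2 lay far below flox, and KO hypoxia 4 lay within its range. Its log2 fold change was -0.33 ± 0.12 (edgeR adjusted p = 0.12), and without KO hypoxia 1 it was -0.23 (edgeR adjusted p = 0.269). In the 9 libraries, where KO hypoxia keeps only replicates 1 and 2, Opalin, Mag and Fa2h were called lower in edgeR at -0.59, -0.34 and -0.26 (adjusted p = 0.00511, 0.013 and 0.0159).

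Gal3st1 had no overlap in either oxygen level, the 1 gene of the 29 of which this held, while 1.91% of all genes were lower and 5.03% higher without overlap in both. It was at 11.3, 11.8 and 14.5 CPM in flox and 9.95, 11.2 and 10.7 CPM in KO in normoxia. In hypoxia it was at 11.96, 12.8 and 12.8 CPM in flox and 10.3, 9.39, 11.1 and 10.2 CPM in KO. The gap in normoxia was narrow, between flox normoxia 1 and KO normoxia 2, and the gap in hypoxia was wider. In hypoxia the log2 fold change was -0.29 ± 0.09 (edgeR adjusted p = 0.0611), which passed in DESeq2 (adjusted p = 0.0367). Without overlap in hypoxia were also 11.5% of all genes higher and 9.37% lower, and among the 29 only Olig1 and Gal3st1.

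**Figure D3:**
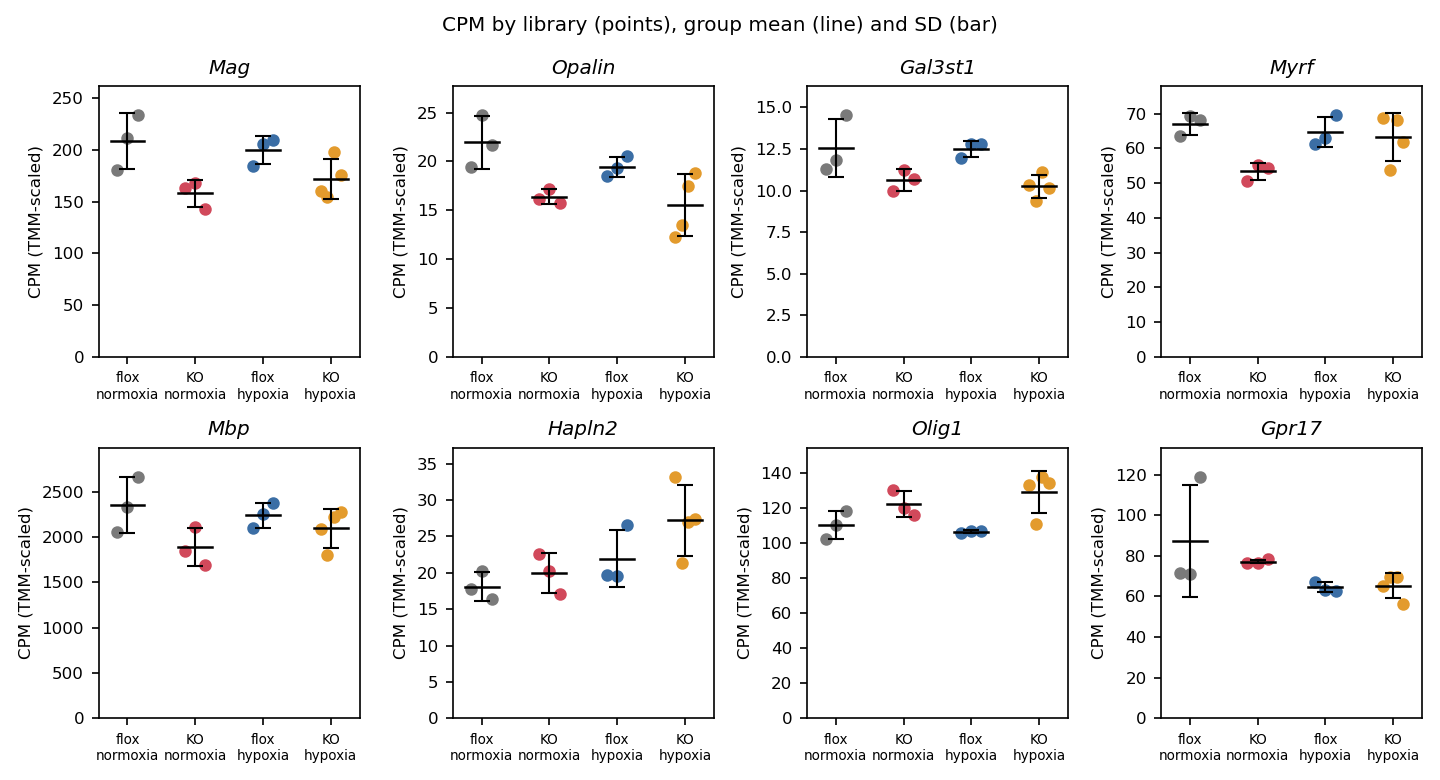
CPM of Mag, Opalin, Gal3st1, Myrf, Mbp, Hapln2, Olig1 and Gpr17 in the 4 groups. Points are libraries, lines are group means and bars are SDs (n = 3 or 4), and each axis starts at 0. KO means lie lower for Mag, Opalin and Gal3st1 in both oxygen levels and higher for Olig1, and the third flox normoxia library stands apart for Gpr17.

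The mean KO effect, the average of the differences in normoxia and in hypoxia, uses all 13 libraries. In it 4 genes fell and 1 rose: Mag, Opalin, Gal3st1 and Myrf were lower in KO and Olig1 was higher. These 5 of 29 compare with 11.5% of all genes called, 7.78% higher and 3.7% lower. Of the 15 mature myelin genes 14 were below 0 with a median of -0.20, and of the 29 genes 22 were below 0 with a median of -0.13, against 52.3% of all genes and a median of -0.01. An unadjusted p under 0.05 was reached by 17 of the 29 and by 24.5% of all genes.

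The mean log2 fold change of Mag was -0.31 ± 0.07 (edgeR adjusted p = 0.00664), a ratio of KO to flox of 0.808. In hypoxia Mag was at 184, 206 and 209 CPM in flox and 161, 154, 198 and 176 CPM in KO, and only KO hypoxia 3 reached the flox range. Opalin was at 19.4, 24.8 and 21.7 CPM in flox and 16.1, 17.2 and 15.7 CPM in KO in normoxia, where all KO libraries lay below all flox libraries. Its mean log2 fold change was -0.37 ± 0.09 (edgeR adjusted p = 0.0126), a ratio of 0.771. For Gal3st1 the mean was -0.26 ± 0.07 (edgeR adjusted p = 0.0161), a ratio of 0.833, and for Olig1 it was 0.21 ± 0.05 (edgeR adjusted p = 0.00981), a ratio of 1.16. These 4 genes were called in each of the 13 fits that left out 1 library. The fit with a sex term called them and Myrf, and also Mbp, Cnp, Ermn and Tspan2 as lower, among 2299 of all genes. In the 9 libraries Mag, Opalin, Olig1 and Fa2h were called in edgeR at -0.29, -0.50, 0.22 and -0.17 (adjusted p = 0.00432, 0.00167, 0.0239 and 0.0301). Gal3st1 at -0.23 was not called there (edgeR adjusted p = 0.0684), and 1661 of all genes were.

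Myrf stood at -0.18 ± 0.05 in the mean (edgeR adjusted p = 0.0403), and its call held in 5 of the 13 fits that left out 1 library. It was lost without flox normoxia 2 or 3, any 1 of the 3 KO normoxia libraries, flox hypoxia 2 or 3, or KO hypoxia 4. It was -0.20 in the 9 libraries (edgeR adjusted p = 0.113), and with a replicate block -0.17 (edgeR adjusted p = 0.0668), so neither passed. In hypoxia Myrf was at 61.4, 62.9 and 69.6 CPM in flox and 68.8, 53.9, 68.2 and 61.9 CPM in KO, with overlapping groups and a log2 fold change of -0.03 ± 0.07. Just outside the threshold were Mal at -0.24 ± 0.08, Tspan2 at -0.19 ± 0.06 and Ermn at -0.27 ± 0.08 (edgeR adjusted p = 0.0505, 0.0517 and 0.0531). Mbp at -0.21 ± 0.07 and Fa2h at -0.20 ± 0.06 came next (edgeR adjusted p = 0.0578 and 0.0594). DESeq2 called these 5 and Cnp lower in the mean. Hapln2 again stood on the other side of 0, at 0.23 ± 0.10 (edgeR adjusted p = 0.185).

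The other transcription factors did not pass in the mean. Olig2, the partner of Olig1 that specifies the lineage, was at 0.05 ± 0.07, and Sox10, which acts with Myrf on myelin genes, was at -0.07 ± 0.06. Nkx6-2 was at -0.19 ± 0.11. Olig1 and Olig2, which lie next to each other in the genome, therefore had values of different size, and the difference between them was not tested. In normoxia Olig1 was at 103, 111 and 118 CPM in flox and 131, 120.1 and 116 CPM in KO, with overlapping groups and a log2 fold change of 0.15 ± 0.07.

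**Figure D4:**
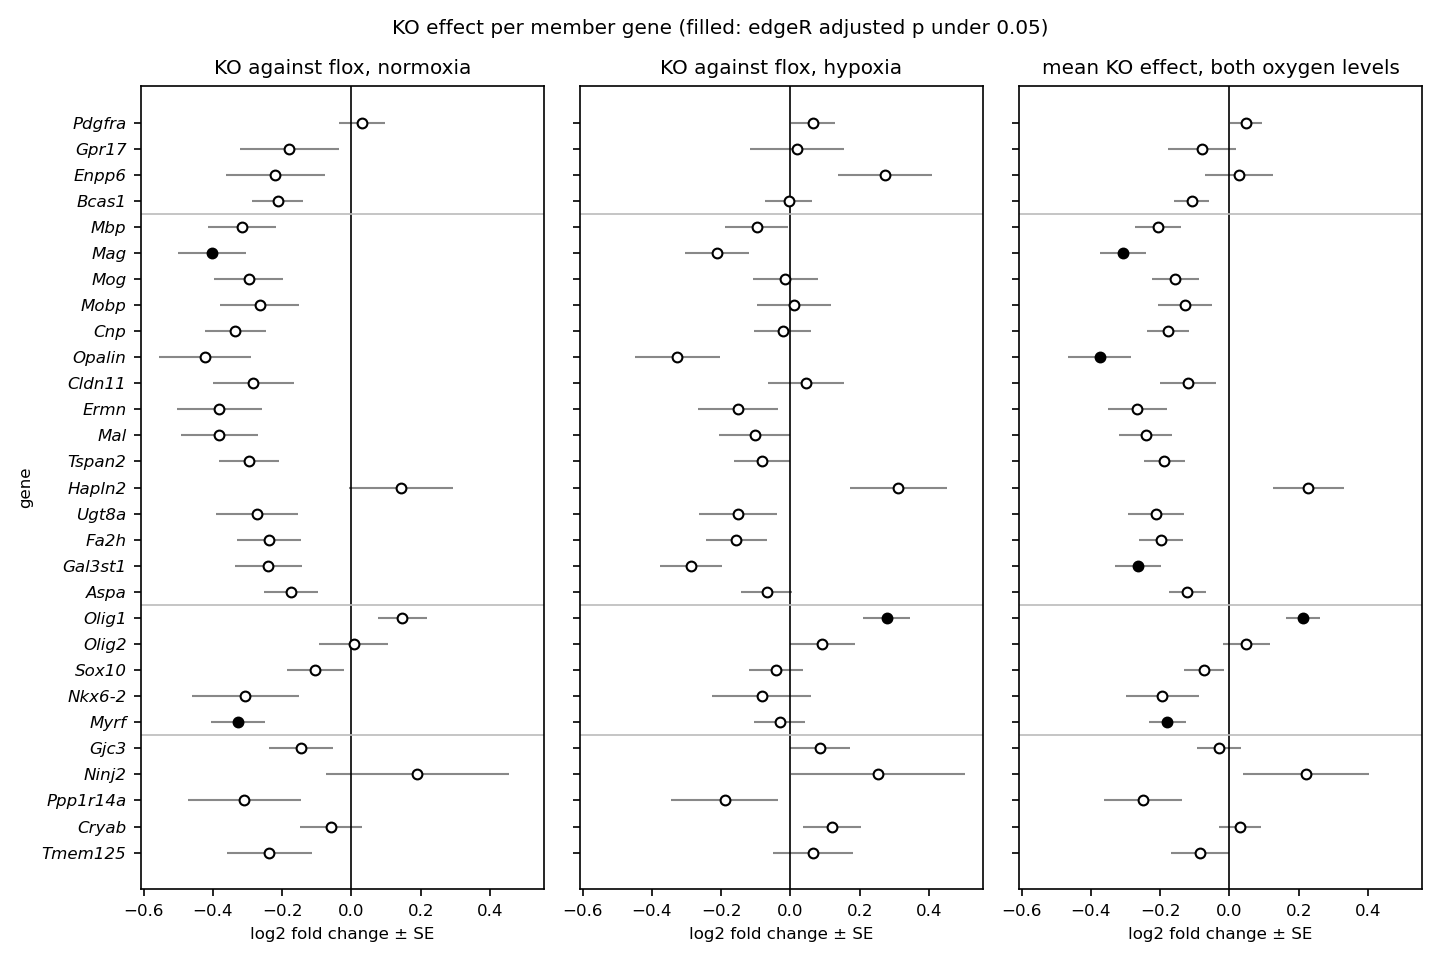
Log2 fold change of KO against flox with SE for each gene, in normoxia, in hypoxia and as their mean. Filled points passed an edgeR adjusted p under 0.05. In normoxia most genes lie left of 0 with Mag and Myrf filled, in hypoxia the points gather around 0 with Olig1 filled, and in the mean Mag, Opalin, Gal3st1, Myrf and Olig1 are filled.

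The remaining oligodendrocyte genes showed no call in the main edgeR fit or in DESeq2 in any of the 7 contrasts. Without a filter, edgeR called Gjc3 higher in hypoxia than in normoxia in KO, among 833 of all genes. In the mean KO effect Gjc3, a connexin of oligodendrocytes, stood at -0.03 ± 0.06, Cryab, a small heat shock protein, at 0.03 ± 0.06 and Tmem125 at -0.09 ± 0.08. Ppp1r14a, an inhibitor of protein phosphatase 1, was at -0.25 ± 0.11 and Ninj2, an adhesion protein, at 0.22 ± 0.18. The standard error of Ninj2 was the widest of the 29, at counts that were the lowest of the set.

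Windows of RefSeq sequence before the start of transcription were searched for 3 short motifs, because Mag, Opalin and Gal3st1 were all called lower in the mean KO effect and Myrf was called lower with them. The windows are shown 5′ to 3′ on the strand of the gene, 250 bases that end just before the most 5′ RefSeq start, from the GRCm38.p6 build, which is not the build on which the counts were made. Capitals mark matches to CTGGCAC or CTGGTAC (the core that Myrf binds), ACAAAG or ACAATG (the core of Sox factors) and CAGCTG or CAGATG (E-boxes, which Olig factors bind), searched on both strands, so that a match on the other strand appears as its reverse complement. Mag lies on the minus strand with its window at chr7:30914923-30915172, Opalin on the minus strand at chr19:41077114-41077363 and Gal3st1 on the plus strand at chr11:3983386-3983635. No annotated exon overlaps these windows.
Mag: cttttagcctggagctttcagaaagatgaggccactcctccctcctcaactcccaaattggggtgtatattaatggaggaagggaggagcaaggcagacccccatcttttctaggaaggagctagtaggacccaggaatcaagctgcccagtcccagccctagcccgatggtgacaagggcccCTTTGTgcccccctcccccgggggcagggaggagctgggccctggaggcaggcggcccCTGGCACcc
Opalin: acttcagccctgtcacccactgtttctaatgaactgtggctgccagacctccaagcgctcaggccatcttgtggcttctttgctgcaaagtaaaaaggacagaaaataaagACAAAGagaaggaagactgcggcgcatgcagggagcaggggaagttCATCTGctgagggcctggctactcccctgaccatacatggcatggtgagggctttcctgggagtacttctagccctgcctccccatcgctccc
Gal3st1: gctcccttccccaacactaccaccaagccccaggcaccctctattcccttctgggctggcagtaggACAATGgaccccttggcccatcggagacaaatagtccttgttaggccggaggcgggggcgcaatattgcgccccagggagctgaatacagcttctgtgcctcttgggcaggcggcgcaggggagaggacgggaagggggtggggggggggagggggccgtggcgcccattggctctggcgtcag

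In the Mag window the Myrf core begins 9 bases before the start and a Sox core, on the other strand, 67 bases before it. The Opalin window has a Sox core 139 bases and an E-box, on the other strand, 93 bases before the start, and the Gal3st1 window has 1 Sox core 184 bases before it. Of the 29 genes 21 had a window in the RefSeq table. The Myrf core was in 4 of these 21 (Mag, Mog, Cnp and Hapln2), or 19.0%, and in 5.88% of all 27025 windows of this length. The Sox core was in 9 of 21, or 42.9%, against 25.4% of all windows, and the E-box was in 9 of 21, or 42.9%, against 25.3%. The windows of Opalin and Gal3st1 held no Myrf core. Of the 4 genes with the Myrf core, Mag, Mog and Cnp had log2 fold changes below 0 in KO in normoxia and Hapln2 had one above 0. Among all 29 genes 24 lay below 0 in that comparison, so the direction of these 4 does not set them apart. A match describes letters and not binding.

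The effect of hypoxia was asked next, within each genotype, and none of the 29 genes passed in flox, in KO or in the mean over both genotypes. The shares of all genes called by edgeR were 0.0222%, all higher, in flox, 0.897% (0.622% higher) in KO and 1.05% (0.755% higher) in the mean. An unadjusted p under 0.05 was reached by 1, 7 and 4 of the 29, against 6.65%, 14.3% and 12.4% of all genes. DESeq2 called 0 of the 29 in flox, 2 in KO (Hapln2 and Myrf, both higher in hypoxia) and 1 in the mean (Hapln2). It called more of all genes than edgeR did, 67 against 5 in flox, 755 against 202 in KO and 604 against 237 in the mean. In flox 23 of the 29 genes lay below 0, against 50.6% of all genes, with a median of -0.07 against 0.00. In KO 4 of 29 lay below 0, against 47.5% of all genes, with a median of 0.11 against 0.01. In the mean 7 of 29 lay below 0, against 48.6% of all genes, with a median of 0.03. These patterns did not hold in the 9 libraries, where 15 of 29 lay below 0 in flox, 15 in KO and 16 in the mean. There the median in KO was -0.01 for the 29 genes and -0.02 for the 15 mature genes, against 0.13 for those 15 over all libraries and 0.07 without KO normoxia 3. Without flox normoxia 3, 14 of 29 lay below 0 in flox, and without flox normoxia 1 or KO normoxia 3, 17 of 29 lay below 0 in the mean. Each comparison uses a normoxia group in which 1 library lay at one end for most mature genes, flox normoxia 3 at the high end and KO normoxia 3 at the low end.

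Gpr17 had lower levels in hypoxia in both genotypes. It was at 67.3, 63.3 and 62.8 CPM in flox and at 65.3, 69.6, 69.6 and 56.5 CPM in KO in hypoxia, below the flox and KO values in normoxia given above without overlap in either genotype. Lower without overlap were 5.98% of all genes in flox and 6.04% in KO, and of the 29 genes only Gpr17. None of the 29 was higher without overlap in flox, against 6.56% of all genes. The log2 fold changes were -0.44 ± 0.14 in flox, -0.24 ± 0.13 in KO and -0.34 ± 0.10 in the mean (edgeR adjusted p = 0.548, 0.447 and 0.125), so none passed. Without flox normoxia 3 the flox value was -0.15.

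Hapln2 and Enpp6 had their highest group means in KO hypoxia. Hapln2 was at 19.7, 19.6 and 26.5 CPM in flox and 33.2, 21.3, 26.95 and 27.3 CPM in KO in hypoxia, and the KO libraries ranged widely, with KO hypoxia 1 the highest of all 13. Its mean hypoxia effect was 0.36 ± 0.10 (edgeR adjusted p = 0.12), and 0.31 without KO hypoxia 1. Enpp6 was at 15.4, 13.1, 14.9 and 13.1 CPM in KO hypoxia, above all 3 KO normoxia libraries, as were 6.59% of all genes. Its log2 fold change in KO was 0.39 ± 0.14 (edgeR adjusted p = 0.189), and in flox it was -0.10 ± 0.14.

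Whether the KO effect itself differed between oxygen levels was tested by the interaction. No gene of the 29, and 0% of all genes, passed in edgeR, and 3 of the 29 reached an unadjusted p under 0.05 against 7.26% of all genes. DESeq2 also called 0 of the 29. The 3 were Enpp6 at 0.49 ± 0.20, Cnp at 0.31 ± 0.12 and Myrf at 0.30 ± 0.11 (edgeR adjusted p = 0.654, 0.633 and 0.625). Below 0 was 1 of the 29, against 48.5% of all genes, where values above 0 stand for a KO effect that is less negative or more positive in hypoxia, and the median was 0.20 against 0.01 over all genes. In the 9 libraries 15 of the 29 lay below 0, with a median of -0.00036, so the direction shared by most genes was not seen there. The median was 0.12 without flox normoxia 3 or without KO normoxia 3. The interaction of Cnp came to 0.07 in the 9 libraries, and over the fits that left out 1 library it ran from 0.22 to 0.42. A difference of the KO effect between oxygen levels is thus not shown.

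The rule for the set asks how precursor and mature genes compared, and the difference of their mean log2 CPM gives 1 value per library. It was -0.85, -1.01 and -0.75 in the flox and -0.79, -0.79 and -0.60 in the KO libraries in normoxia. In hypoxia it was -0.94, -0.96 and -1.05 in flox and -0.72, -0.67, -0.86 and -0.96 in KO. The KO libraries tended to the higher end, and flox and KO overlapped in both oxygen levels. Group values were -0.87 ± 0.13 in flox normoxia, -0.73 ± 0.11 in KO normoxia, -0.98 ± 0.06 in flox hypoxia (SD, n = 3 each) and -0.80 ± 0.13 in KO hypoxia (SD, n = 4). No test was made of a score over chosen genes.

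**Figure D5:**
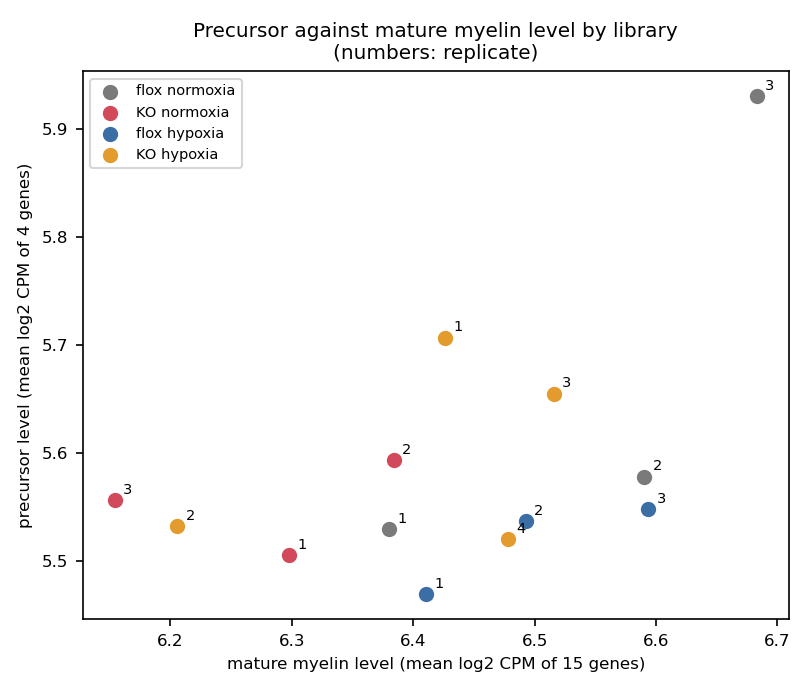
Mean log2 CPM of the 4 precursor genes against that of the 15 mature myelin genes, 1 point per library, with replicate numbers. Flox normoxia 3 lies at the upper right (mature 6.68, precursor 5.93) and KO normoxia 3 at the far left (mature 6.15), and the precursor level of the other libraries lies between 5.47 and 5.71.

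The libraries of a group did not sit at 1 level of myelin transcripts. For the mature score the values ran from 6.38 to 6.68 in flox normoxia, 6.15 to 6.38 in KO normoxia, 6.41 to 6.59 in flox hypoxia and 6.21 to 6.52 in KO hypoxia. Over the 13 libraries flox normoxia 3 was the highest in 10 of the 15 mature genes. KO normoxia 3 was the lowest in 9 of them and KO hypoxia 2 in 4. Flox normoxia 3 and KO normoxia 3 are both among the 4 libraries that went against the male label, and they lie at opposite ends, while KO hypoxia 2 is among the 9. Flox normoxia 3 and KO normoxia 3 also differ in genotype, and the part of sex in the spread between libraries was not tested. In bulk tissue, fewer oligodendrocytes and less myelin RNA per oligodendrocyte cannot be told apart.

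Further genes of the lineage, from lists of known markers, were read from the same fit. Of 33 other genes of mature oligodendrocytes, 7 fell in the mean KO effect and none rose, against 3.7% of all genes lower and 7.78% higher. Of the 33, 27 were below 0, against 52.3% of all genes, with a median of -0.11. The 3 with the smallest p were St18, a zinc finger factor, Efnb3, an ephrin ligand, and Gpr37, a receptor of the oligodendrocyte membrane, at -0.32 ± 0.06, -0.24 ± 0.05 and -0.30 ± 0.06 (edgeR adjusted p = 0.00287, 0.00404 and 0.00591). Gpr37 was at 64.5, 66.5 and 64.5 CPM in flox and 48.7, 53.6 and 51.3 CPM in KO in normoxia, with a clear gap, and at 58.8, 65.4 and 68.9 CPM in flox and 50.9, 44.3, 60.6 and 60.5 CPM in KO in hypoxia, where the groups overlapped. In normoxia alone 2 of the 33 fell (St18 and Efnb3), against 0.369% of all genes. In hypoxia alone none passed, against 2.28% of all genes lower. The lists of other lineage genes, cells and regions were read in the main fit only, so their values in the 9 libraries are not given.

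The precursor side showed no common direction in the mean KO effect. Of 15 other genes of oligodendrocyte precursors, Rlbp1 and Ptprz1 rose and Pcdh15 fell in the mean KO effect, with a median of 0.02. Ptprz1, a receptor phosphatase that astrocytes also express, was at 0.11 ± 0.03, Rlbp1, a retinaldehyde binding protein, at 0.31 ± 0.06 and Pcdh15, a protocadherin, at -0.18 ± 0.05 (edgeR adjusted p = 0.0143, 0.00349 and 0.0453). Of 13 other genes of committed precursors, Lims2 rose at 0.45 ± 0.12 and Sox8, a relative of Sox10, fell at -0.29 ± 0.09 (edgeR adjusted p = 0.0207 and 0.0483), with a median of 0.02. In normoxia 10 of these 13 were below 0, with a median of -0.08. In hypoxia 10 of the 13 were above 0, with a median of 0.12 against -0.01 over all genes. There 7 of the 13 reached an edgeR unadjusted p under 0.05, against 22.6% of all genes. In hypoxia alone 3 of the 13 rose, Itpr2, Tns3 and Lims2, at 0.34, 0.19 and 0.56, against 6.78% of all genes. Which cells these rises came from was not tested.

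Markers of other cells moved with genotype in the same libraries, where 7.78% of all genes rose and 3.7% fell in the mean KO effect. In the mean KO effect 12 of 12 pan-endothelial genes rose, with Flt1, a receptor for vascular endothelial growth factor, at 0.53 ± 0.08 and Cldn5, a tight junction claudin, at 1.43 ± 0.10. The summed endothelial level was 165 to 179 CPM in flox and 313 to 348 CPM in KO in normoxia, and 226 to 252 CPM in flox and 402 to 585 CPM in KO in hypoxia. Of 9 pericyte genes 9 rose, with Rgs5 at 0.88 ± 0.06 and Vtn at 1.04 ± 0.07, and sums of 193 to 223 CPM in flox and 347 to 372 CPM in KO in normoxia. In hypoxia the pericyte sums were 259 to 265 CPM in flox and 410.0 to 537 CPM in KO. The summed levels of both lists were thus higher in every KO library than in every flox library at the same oxygen level.

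Microglial genes rose in 9 of 10, with Csf1r, a growth factor receptor, at 0.36 ± 0.05. Their sums were 333 to 361 CPM in flox and 398 to 427 CPM in KO in normoxia, and 344 to 361 CPM in flox and 433 to 604 CPM in KO in hypoxia. Of 12 astrocyte genes 6 rose and 2 fell, with the glutamate transporter Slc1a2 at -0.20 ± 0.03 and the filament protein Gfap at 1.55 ± 0.11. Astrocyte sums were 5877 to 6228 CPM in flox and 6492 to 6728 CPM in KO in normoxia, and 5747 to 5814 CPM in flox and 5970.4 to 7141 CPM in KO in hypoxia. Erythroid genes rose in 6 of 7, with the hemoglobin genes Hba-a1 at 3.56 ± 0.36 and Hbb-bs at 2.99 ± 0.39. Erythroid sums were 139 to 262 CPM in flox and 974 to 1701 CPM in KO in normoxia. In hypoxia they were 449 to 671 CPM in flox and 3409 to 17401 CPM in KO, where the libraries differed widely. Near-identical hemoglobin copies make the single values uncertain. Of 12 pan-neuronal genes 2 fell, and the most abundant, Snap25 and Syt1, stood at 0.01 ± 0.03 and -0.01 ± 0.02. Neuronal sums were 8191 to 8425 CPM in flox and 8324 to 8699.8 CPM in KO in normoxia, and 8487 to 8606 CPM in flox and 7889.7 to 7949.7 CPM in KO in hypoxia. The part of these shifts in the myelin values was not tested. Scaling without a composition factor left Mag, Opalin, Gal3st1 and Olig1 called in the mean KO effect, and Myrf was no longer called. The TMM factors ran only from 0.985 to 1.02, and this setting is not a check on the mix of cells.

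Myelin of peripheral nerve shares Mbp, Mag, Mal and other genes with the central kind. Pmp2, a lipid binding protein of peripheral myelin, had at most 1 count in a library. Of 10 Schwann cell genes 7 were tested and 3 rose in the mean KO effect, and the most abundant were Egr2 at -0.90 ± 0.40 and Pmp22 at 0.52 ± 0.05, both also expressed by other cells. Of 10 striatal genes 3 fell, with Pde10a at -0.42 ± 0.09 and Ppp1r1b at -0.35 ± 0.10. Striatal sums were 337 to 458 CPM in flox and 358 to 364 CPM in KO in normoxia. In hypoxia they were 433 to 679.8 CPM in flox and 343 to 488 CPM in KO, and 5 of 10 fell, against 2.28% of all genes. Of 7 choroid plexus genes none passed (edgeR, 1 at an unadjusted p under 0.05), and the list summed to between 8.99 and 340.5 CPM in KO normoxia and to between 309.7 and 520.0 CPM in the 3 other groups, with Ttr at -0.43 ± 0.54 and Kl at -0.59 ± 0.22. The part of these regional markers in the myelin values was not tested.

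The remaining lists of other cells and regions were read in the same mean KO effect. Of 10 genes of fibroblasts and meninges 8 rose, with Dcn at 0.29 ± 0.08 and Col1a2 at 0.74 ± 0.14, and sums of 91.2 to 108.0 CPM in flox and 118 to 155 CPM in KO in normoxia. Of 8 smooth muscle genes 3 rose, with Myl9 at 0.53 ± 0.08 and Acta2 at 0.73 ± 0.14. Of 10 genes of cortex and hippocampus 2 fell, and the most abundant, Slc17a7 and Tbr1, stood at -0.04 ± 0.03 and -0.02 ± 0.05. Of 9 tested cerebellar genes 1 rose, and the most abundant, Calb1 and Grm4, stood at -0.02 ± 0.03 and -0.12 ± 0.05 and did not pass. Of 8 thalamic genes 1 rose, and the most abundant, Rora and Slc17a6, stood at 0.07 ± 0.07 and -0.01 ± 0.08 and did not pass. The median of the thalamic list was 0.36 with 6 of 8 above 0, and in hypoxia alone it was 0.67 with 8 of 8 above 0. Thalamic sums were 168 to 252 CPM in flox and 211 to 281 CPM in KO in hypoxia, with overlapping groups. Of 8 genes of hindbrain and spinal cord 1 was tested, Tph2 at -0.05 ± 0.15, and it did not pass.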

How the data were processed

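Messenger RNA of brain tissue was sequenced in 13 libraries with a stranded kit, per the labels' protocols. The authors deposited raw counts per gene and RPKM values per gene. RPKM equalled the count over the library total and 1 length per gene for 35248 genes, within a relative range of 9.8e-15. HISAT2, edgeR and GRCm39 are named in the submitters' processing notes, and the strand setting of the counting is not given in the sources used here. Groups came from the sample titles. No 2 libraries of a group repeated each other, with a chi-square per degree of freedom of at least 4.44, and the labels name no animals, so p-values measure the spread between libraries.

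Counts were tested with the quasi-likelihood F test of edgeR 4.0.16 in R 4.3.3, on 22507 genes kept by filterByExpr, with TMM scaling and 1 mean per group over all 13 libraries. Each of 7 contrasts had its p-values adjusted over all its genes (Benjamini-Hochberg), with a threshold of 0.05. The script was tested on simulated data. Scores are means of log2 CPM with a prior count of 1. The 29 genes and the marker lists were chosen with earlier results of these data known, so counts over a list carry no test. All 29 were described. From lists of other lineage genes the 3 with the smallest p in each direction past the threshold were named, and from other lists the 2 with the highest mean CPM, except where a gene is not reported here. Gene coordinates come from RefSeq on GRCm38.p6, since no GRCm39 sequence was used here. Alternatives were DESeq2 1.42.0, RLE scaling or none, no filter or one of 1 CPM, a replicate block, a sex term, the 9 libraries with Y-linked counts, a fit of the compared libraries alone, and the omission of each library in turn.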

Additional observations from a re-analysis of the deposited data

Results flagged for a closer look

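In the group of 4 KO libraries in hypoxia, 2 of 29 genes had a library far from the other 3, with a gap to the nearest of the others that exceeded Dixon's 95% critical share of the range of the group. Tspan2 was at 111 CPM in KO hypoxia 2 and between 133 and 135 CPM in the other 3, a gap of 0.907 of the range. Ppp1r14a was at 7.03 CPM in KO hypoxia 2 and between 9.23 and 9.56 CPM in the other 3, a gap of 0.869 of the range. Chance flags about 1 in 20 such groups. Both flags fall on the same library, which had the lowest mature myelin score of its group, 6.21 against 6.43, 6.52 and 6.48.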

How the results depend on the processing

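The number of the 29 genes called depended on the setting, while no called fold change changed sign. For KO against flox in normoxia 2 genes were called, against 13 without a filter, 8 in DESeq2, 0 in the 9 libraries, 4 in a fit of only the libraries compared and 0 to 5 when 1 library was left out. For hypoxia the count of 1 became 4 without a filter, 2 in DESeq2 (Olig1 higher and Gal3st1 lower), 1 with a sex term (Gal3st1 lower in place of Olig1), 3 in the 9 libraries and 0 to 2 when 1 library was left out. The mean KO effect gave 5, against 14 without a filter, 8 with at least 1 CPM in 3 libraries, 11 in DESeq2, 9 with a sex term and 4 to 11 when 1 library was left out (11 without flox normoxia 1, 9 without KO normoxia 2). Hypoxia against normoxia gave 0, against 1 in flox without a filter, and in KO 5 without a filter, 2 in DESeq2 and 0 to 2 when 1 library was left out (2 without KO hypoxia 2). The mean hypoxia effect gave 0, against 2 without a filter, 1 in DESeq2 and 0 to 1 when 1 library was left out. The interaction gave 0 of the 29 in each setting run. Causes were not tested.

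Over all genes, KO against flox in normoxia called 524, against 995 without a filter, 874 in DESeq2 and 311 in the 9 libraries. It called 550 in only the libraries compared and 250 to 727 when 1 library was left out. In hypoxia the count was 2039, against 2521 without a filter, 2566 in DESeq2, 1566 with a sex term and 1401 in the 9 libraries. It was 1151 to 2490 when 1 library was left out. The mean KO effect called 2584, against 3030 without a filter, 2524 with at least 1 CPM in 3 libraries and 3071 in DESeq2. It called 2299 with a sex term, 1661 in the 9 libraries and 1951 to 3053 when 1 library was left out. The mean hypoxia effect called 237, against 691 without a filter, 604 in DESeq2 and 72 to 331 when 1 library was left out. Hypoxia in KO called 202, against 833 without a filter, 755 in DESeq2, 94 in the 9 libraries, 30 in only the libraries compared and 2 to 463 when 1 library was left out. Hypoxia in flox called 5, against 158 without a filter, 67 in DESeq2, 66 in the 9 libraries, 19 in only the libraries compared and 0 to 45 when 1 library was left out.

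A replicate block gave 2 called genes in normoxia, 1 in hypoxia (Opalin lower in place of Olig1 higher), 4 in the mean KO effect and 0 in the other contrasts. Over all genes the block called 510 in normoxia, 1571 in hypoxia and 2274 in the mean KO effect. The replicate numbers showed no clear pairing of the samples. Deviations of same-numbered libraries correlated at -0.02 to 0.13 over 18 pairs, and those of other numbers at -0.13 to 0.09 over 45 pairs. These ranges overlap, which does not exclude a pairing. The highest same-number value, 0.13, joined flox normoxia 3 and KO hypoxia 3, which both went against the male label.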
